A study of Mus musculus with 2 samples.

Results

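The miR-181 family comprises 6 microRNA (miRNA) genes of the mouse, Mir181a-1, Mir181b-1, Mir181a-2, Mir181b-2, Mir181c and Mir181d. They were taken by gene name from the GENCODE M21 annotation and make up 6 of the 2202 miRNA genes counted. The counts came from small RNA sequencing of cerebral cortex from mice of strain B6NCrl, with MODEL-AD given as their source. There was 1 group of 2 libraries, numbered as biological replicates 1 and 2. The animals were wild-type controls with no treatment given, described as female, although the field for sex and the field for age read as not collected. The libraries have separate tissue records but cite 1 donor record, so it is not stated whether they came from separate animals, and the spread between them may be technical in part. No genotype, treatment or tissue could be contrasted. The family was therefore described by gene, by genomic locus and by library.

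A miRNA gene is transcribed into a primary transcript that is cut to a hairpin and then to a short duplex. An arm of the duplex, from the 5′ (5p) or the 3′ (3p) side of the hairpin, is loaded into an Argonaute protein. There its seed, the bases near its 5′ end, pairs with messenger RNAs, which are then repressed. The miR-181 family is conserved among vertebrates and is known for tuning T cell receptor signalling in the thymus. In brain its members have been studied in synaptic plasticity and in the response of neurons and astrocytes to injury.

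The family occupies 3 loci with 2 genes each, in mm10 coordinates. Mir181a-1 (chr1:137966455-137966541) and Mir181b-1 (chr1:137966639-137966718) lie on the plus strand, 97 nt apart, in an intron of the processed transcript gene Gm4258. Mir181b-1 also lies inside an exon of the lincRNA gene A430106G13Rik on the same strand, which Mir181a-1 overlaps in part. Both lie opposite an intron of the lincRNA gene Gm26936. Mir181a-2 (chr2:38852735-38852810) and Mir181b-2 (chr2:38853830-38853918) lie on the plus strand, 1019 nt apart, and opposite an intron of Nr6a1, which encodes an orphan nuclear receptor. Mir181b-2 also lies opposite an exon of Gm44144, a gene model still to be tested experimentally. Mir181d (chr8:84178716-84178787) and Mir181c (chr8:84178873-84178961) lie on the minus strand, 85 nt apart, in an intron of Nanos3 on the same strand. Nanos3 encodes an RNA-binding protein of germ cells.

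The mature sequences are shown because they set which reads can be told apart between members. RefSeq (GRCm38.p6) gave 4 different 5p arms for the 6 genes. Capitals mark the seed, bases 2 to 8.

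miR-181a-5p: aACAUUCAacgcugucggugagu

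miR-181b-5p: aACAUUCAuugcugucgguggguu

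miR-181c-5p: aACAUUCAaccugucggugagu

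miR-181d-5p: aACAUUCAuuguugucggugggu

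All 4 carry the seed ACAUUCA, and no other of the 1679 mature miRNAs in the sequence table carried it. With positions counted from 1 at the 5′ end, the substitutions between miR-181a-5p (23 nt) and miR-181b-5p (24 nt) are A9U, C10U and A21G. From miR-181b-5p to miR-181d-5p (23 nt) the only substitution is C12U. The 24-nt arm runs 1 base further at its 3′ end than either of the others. The miR-181c-5p sequence equals miR-181a-5p with 1 base deleted, at position 11. The family's 5p arms therefore differ only outside the seed.

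The 3p arms are shown because, unlike the 5p arms, each of the 6 genes has its own.

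miR-181a-1-3p: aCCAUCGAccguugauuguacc

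miR-181c-3p: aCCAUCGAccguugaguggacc

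miR-181b-1-3p: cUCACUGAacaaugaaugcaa

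miR-181b-2-3p: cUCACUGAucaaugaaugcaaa

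miR-181a-2-3p: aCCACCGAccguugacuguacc

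miR-181d-3p: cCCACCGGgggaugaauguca

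These fall into 4 seed groups. The arms of Mir181a-1 and Mir181c share a seed and differ by U16G and U19G. Those of Mir181b-1 and Mir181b-2 share another, and A9U is the only substitution between them, but their lengths are 21 and 22 nt. Mir181a-2 and Mir181d each have a seed of their own on this side, and the Mir181a-1 and Mir181a-2 arms differ by U5C and U16C.

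The tables leave out reads placed at several loci, so an arm that is whole in 2 genes bears on what their counts can hold. The hairpins of the 2 such pairs are given with both mature arms in capitals.

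Mir181a-1: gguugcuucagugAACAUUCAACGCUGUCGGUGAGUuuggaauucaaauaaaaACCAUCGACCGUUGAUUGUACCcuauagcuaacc

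Mir181a-2: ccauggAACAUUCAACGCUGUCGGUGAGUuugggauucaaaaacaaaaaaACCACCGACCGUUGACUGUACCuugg

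Mir181b-1: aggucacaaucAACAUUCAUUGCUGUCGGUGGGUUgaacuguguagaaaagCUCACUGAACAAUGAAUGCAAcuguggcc

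Mir181b-2: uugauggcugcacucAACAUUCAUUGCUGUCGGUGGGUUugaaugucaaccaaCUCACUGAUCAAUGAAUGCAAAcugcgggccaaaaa

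miR-181a-5p is whole in Mir181a-1 and in Mir181a-2. The identical run around it is 28 nt, from 1 base before the arm to 4 bases after it. Counted from the start of the arm, the first difference is A28G, so a read that starts there must be 28 nt long, 5 nt longer than the arm, to match 1 counted gene alone. miR-181b-5p is whole in Mir181b-1 and in Mir181b-2, in an identical run of 26 nt that starts 2 bases before the arm and ends with it. Their first difference from the start of the arm is G25U, and a read of 25 nt, 1 nt longer than the arm, matches 1 counted gene alone. miR-181c-5p is found in 1 counted gene from 11 nt onward and miR-181d-5p from 12 nt, and each of the 3p arms from 16 nt or fewer. Uniqueness was computed among the 2202 counted genes, not over the genome. The tables separate neither arms nor read lengths, so the share of each member's counts from each arm was not measured.

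**Figure D1:**
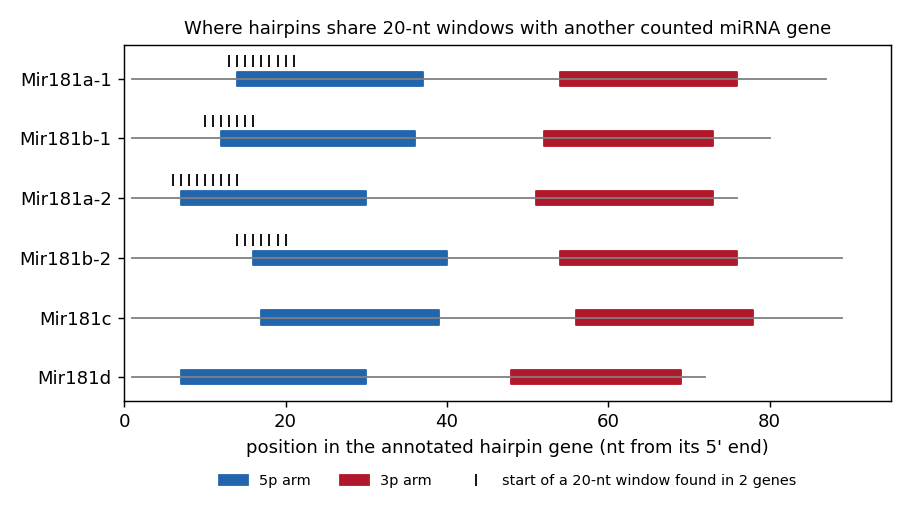
Each line is a member's hairpin (x axis, nt from its 5′ end), with the 5p arm in blue and the 3p arm in red, and ticks mark the start of every window of 20 nt that occurs in 2 counted genes. In Mir181a-1 59 of 68 windows and in Mir181a-2 48 of 57 occur in 1 gene, in Mir181b-1 54 of 61 and in Mir181b-2 63 of 70, while in Mir181c (70 of 70) and Mir181d (53 of 53) every window does.

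The 4 genes that share an arm thus have 7 to 9 windows of 20 nt in common with 1 other gene, all around the 5p arm. Mir181c and Mir181d share no such window with any counted gene.

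The libraries held 12506469 reads in replicate 1 and 18276311 in replicate 2, of which 4429633 and 6985784 were sense counts of miRNA genes. Counts were scaled to these sense totals (CPM). Reads placed at several loci made up 43.9% and 47.9% of reads. Of the 2202 genes, 438 reached 2 CPM in both libraries, here called detected. The limit that a count of 0 allows, 3 counts, was 0.677 CPM and 0.429 CPM. Intervals and this limit cover counting error only, since no molecular identifiers mark copies of a read. Of 13 neuron marker genes 9 were detected, and the list held 6.08% and 8.04% of counts. It was led by Mir132, an activity-regulated neuronal miRNA, at 52078 CPM ± 13446 (SD, n = 2), and Mir128-1, a neuron-enriched miRNA, at 7392 CPM ± 584. Mir124a-1, Mir124a-2, Mir124a-3 and Mir9-2 were not detected, at means of 1.08 to 1.94 CPM in these counts, which leave out reads placed at several loci. All 3 oligodendrocyte markers were detected, and 5 of 6 muscle markers had no count. The same reads are left out there, so a count of 0 does not show that the RNA was absent. The tissue is a mixture of cells, so fewer cells of a type and less of an RNA per cell cannot be told apart.

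All 6 members were detected. The family held 14498 counts in replicate 1, or 0.327% of all sense counts (95% Wilson interval 0.322 to 0.333). In replicate 2 it held 25807 counts, or 0.369% (0.365 to 0.374). The mean was 0.348% ± 0.0298 (SD, n = 2). Reads of the whole miR-181a-5p or miR-181b-5p arm alone match 2 counted genes, so they are left out of this share. The members' median was 511 CPM, beside 57.8 CPM over the 438 detected genes. No member had a count on the opposite strand in either library, which allows up to 3 counts each.

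Mir181b-2, at the chromosome 2 locus, had the highest count of the family. It had 6653 counts (1502 CPM) in replicate 1 and 11101 (1589 CPM) in replicate 2, a mean of 1546 CPM ± 61.6 (SD, n = 2). It ranked 81 and 70 among the 2202 genes and made up 44.5% ± 2.03 of the family's counts. The libraries differed little here relative to the level.

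Mir181c had 3958 counts (894 CPM) and 5930 (849 CPM), a mean of 871 CPM ± 31.6 (SD, n = 2), and ranked 102 and 99. Mir181d, its neighbour in the Nanos3 intron, had 3007 counts (679 CPM) and 6503 (931 CPM), a mean of 805 CPM ± 178, and ranked 112 and 91. Mir181c was the higher of the pair in replicate 1 and Mir181d in replicate 2, and their ranges overlap.

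Mir181a-1, the member with the higher count at the chromosome 1 locus, had 673 counts (152 CPM) and 1981 (284 CPM), a mean of 218 CPM ± 93.1 (SD, n = 2). It ranked 179 and 151 and had the largest SD relative to its mean in the family. Mir181b-1, on the same strand 97 nt away, had 132 counts (29.8 CPM) and 159 (22.8 CPM), a mean of 26.3 CPM ± 4.98. Mir181a-2, which holds the same 5p arm as Mir181a-1, had 75 counts (16.9 CPM) and 133 (19.0 CPM), a mean of 18.0 CPM ± 1.49. These last members ranked from 253 to 287 and made up 0.763% ± 0.208 and 0.516% ± 0.00138 of the family's counts.

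Per 100 nt of gene length, which puts genes of 72 to 89 nt on a common scale, Mir181b-2 had 1737 CPM ± 69.2 (SD, n = 2), Mir181d 1118 ± 248 and Mir181c 979 ± 35.5. Mir181a-1 had 250.3 CPM ± 107 per 100 nt, Mir181b-1 32.8 ± 6.22 and Mir181a-2 23.7 ± 1.96. Mir181c and Mir181d change places on this scale, and the rest of the order stays. Counts of neighbours in the order of mean CPM were compared within each library by exact two-sided binomial tests, adjusted by the Benjamini-Hochberg method over 10 tests. These cover counting error within a library. The spread between libraries rests on 2 values for each gene.

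Of the 10 tests, 9 passed. Mir181b-2 had 1.68 and 1.87 times the count of Mir181c in replicates 1 and 2. Mir181d had 4.47 and 3.28 times the count of Mir181a-1, and Mir181a-1 had 5.10 and 12.5 times that of Mir181b-1. Mir181c was higher than Mir181d in replicate 1 (exact adjusted p = 5.92e-30) and lower in replicate 2 (exact adjusted p = 3.61e-07). Their difference of 66.3 CPM was smaller than the SD of Mir181d, so they do not differ beyond the spread between libraries. Mir181b-1 had 1.76 times the count of Mir181a-2 in replicate 1 (exact adjusted p = 0.00010) and 1.20 times in replicate 2, where the test was not passed (exact adjusted p = 0.143). Their gap of 8.29 CPM was larger than either SD, and their ranges did not overlap.

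**Figure D2:**
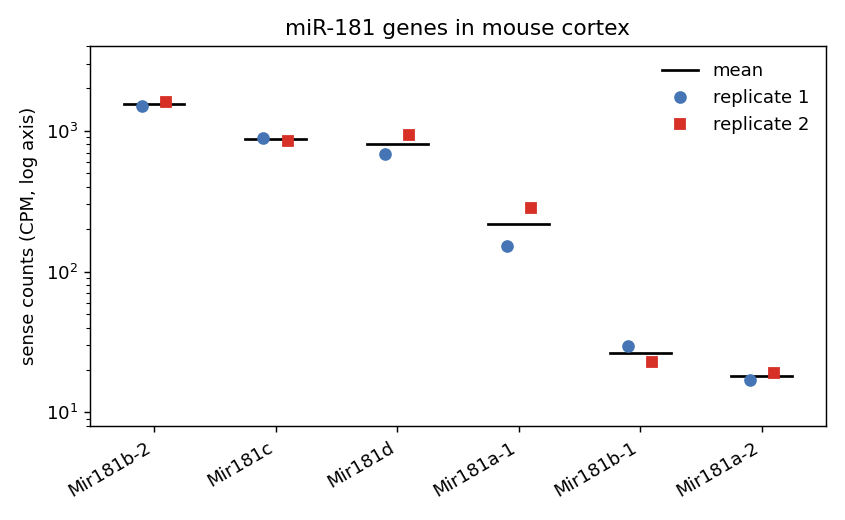
Sense counts in CPM (log axis) of the 6 members in replicate 1 and replicate 2, each library as a point and the mean of both as a line. Mir181b-2 sits highest at 1502 and 1589 CPM, Mir181c and Mir181d overlap, and Mir181b-1 and Mir181a-2 sit lowest, below 30 CPM in both libraries.

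The locus of Mir181c and Mir181d held 6965 of the family's counts in replicate 1, 48.0% (95% Wilson interval 47.2 to 48.9), and 12433 in replicate 2, 48.2% (47.6 to 48.8). The locus of Mir181a-2 and Mir181b-2 held 6728 counts, 46.4% (45.6 to 47.2), and 11234 counts, 43.5% (42.9 to 44.1). The chromosome 1 locus of Mir181a-1 and Mir181b-1 held 805 counts, 5.55% (5.19 to 5.94), and 2140 counts, 8.29% (7.96 to 8.64). The chromosome 1 locus held the lowest count in both libraries. The same 2 mature 5p arms are encoded there and on chromosome 2. Reads placed at several loci are in no count, so a read of such an arm alone is counted at neither locus. The 5p arms of Mir181c and Mir181d each match 1 counted gene, so the loci are not compared on like reads. Over both libraries the locus of Mir181c and Mir181d had 48.1% ± 0.0960, that of Mir181a-2 and Mir181b-2 45.0% ± 2.03, and that of Mir181a-1 and Mir181b-1 6.92% ± 1.94 (SD, n = 2).

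Within a locus the 2 genes are on the same strand, and their ratio needs no scaling between libraries. Mir181a-1 made up 83.6% of the counts of Mir181a-1 and Mir181b-1 in replicate 1 (95% Wilson interval 80.9 to 86.0) and 92.6% in replicate 2 (91.4 to 93.6). The odds were 2.44 times higher in replicate 2 (exact 95% interval 1.89 to 3.15), with an adjusted p of 5.40e-12 by Fisher's exact test over 3 loci. At the chromosome 2 locus the a member instead had the lower count. Mir181a-2 made up 1.11% (0.890 to 1.39) and 1.18% (1.00 to 1.40) of that pair, so that Mir181b-2 had 88.7 and 83.5 times its count. No difference between the libraries was detected there by Fisher's exact test (adjusted p = 0.719), with odds 1.06 times higher in replicate 2 (interval 0.793 to 1.43). From the start of the arm, a read matches 1 counted gene alone from 28 nt for miR-181a-5p and from 25 nt for miR-181b-5p. The reads that can be counted thus differ between the a and b members, and these shares are of counted reads only.

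Mir181c made up 56.8% (55.7 to 58.0) of the counts of Mir181c and Mir181d in replicate 1 and 47.7% (46.8 to 48.6) in replicate 2. The odds in replicate 2 were 0.693 times those in replicate 1 (0.653 to 0.735), with an adjusted p of 8.20e-34 by Fisher's exact test. At 2 of 3 loci the balance of the paired genes therefore differed between the libraries beyond counting error. In both of these, the gene with the lower GC content over its whole length made up a larger share in replicate 2. The GC content of the counted reads was not measured and need not follow that of the gene. Mir181a-1 has 42.5% GC and Mir181b-1 45.0%, and Mir181d has 51.4% and Mir181c 58.4%. The chromosome 2 pair went the other way, within counting error. There Mir181b-2, at 44.9% GC against 46.1% for Mir181a-2, made up a slightly smaller share in replicate 2.

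**Figure D3:**
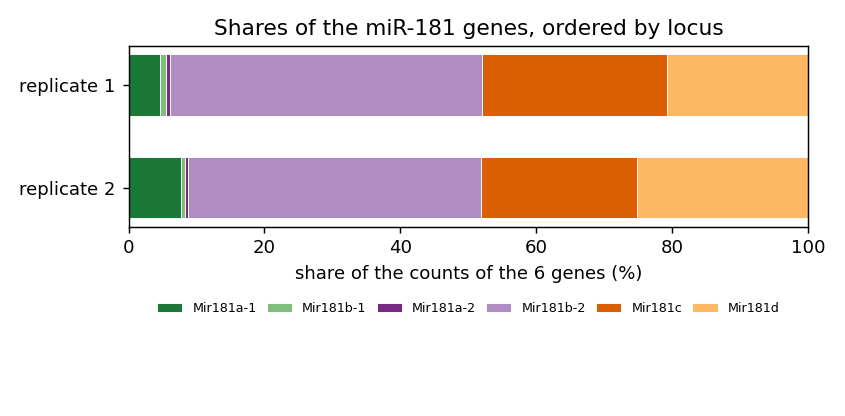
Each bar is a library and shows the percent of the family's sense counts held by each member, with the genes of a locus in shades of 1 colour. The loci on chromosomes 2 (purple) and 8 (orange) hold between 43.5% and 48.2% each, Mir181a-2 is a thin band beside Mir181b-2, and Mir181a-1 is the larger part of the chromosome 1 locus (green).

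An exact two-sided binomial test compared each detected gene between the libraries, with library sizes scaled by TMM (edgeR) and p-values adjusted over 438 genes. Genes with an adjusted p under 0.05 whose ratio reached 2 were called. The test compares these libraries and not conditions. One member, Mir181a-1, was called, that is 1 of 6, beside 79 of 438 genes overall (18.0%). Its log2 ratio of replicate 2 to replicate 1 was 1.02 (exact 95% interval 0.90 to 1.15, exact adjusted p = 2.31e-62), just above the ratio required. At an adjusted p under 0.05 alone, 3 of 6 members passed, beside 63.9% of all detected genes. These were Mir181a-1, Mir181d with a log2 ratio of 0.58 (0.52 to 0.64, exact adjusted p = 5.67e-77) and Mir181b-2 with 0.21 (0.16 to 0.25, exact adjusted p = 4.70e-20).

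The other 3 members did not pass. Their log2 ratios were 0.05 for Mir181c (-0.01 to 0.11, exact adjusted p = 0.122), 0.29 for Mir181a-2 (-0.12 to 0.72, exact adjusted p = 0.219) and -0.26 for Mir181b-1 (-0.61 to 0.08, exact adjusted p = 0.171). Which of them passed depended on the scaling. At an adjusted p under 0.05 alone, 5 of 6 members passed with library totals and with the GC trend between the libraries removed, and 4 of 6 with DESeq2 size factors and with no filter on low counts. Mir181c passed in each of these 4 settings, at log2 ratios of -0.074 with library totals, 0.28 with the GC trend removed, 0.08 with DESeq2 size factors and 0.15 with no filter. Mir181b-1 passed with library totals (-0.39, exact adjusted p = 0.0402) and with the GC trend removed (-0.55, exact adjusted p = 0.00238). Mir181a-2 passed in none of the alternatives run. The counts behind Mir181a-2 and Mir181b-1 were 75 to 159, and their intervals are the widest of the family. The members' median log2 ratio was 0.25 and that of all detected genes -0.03. The median of the absolute log2 ratio was 0.28 in the family and 0.50 over all detected genes. Scaling by library totals instead moved the median of all genes to -0.16 and the split of called genes from 41 higher and 38 lower in replicate 2 to 29 and 55. Mir181a-1 was then at 0.90 and no longer called. With only genes at 10 CPM or more, Mir181a-1 was at 0.99 and not called either.

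Several measures moved with the library. GC content was again taken over the whole gene. The 146 detected genes of lowest GC content (29.1% to 48.3%) had a median log2 ratio of 0.36. It was 0.03 for the 146 in the middle and -0.36 for the 146 of highest GC content (56.8% to 91.6%). Along this trend, the value at the GC content of Mir181a-1 was 0.37 and at that of Mir181c -0.22. With the trend removed, Mir181a-1 had a log2 ratio of 0.65 and was not called, and Mir181b-2 turned to -0.085. The gap between the ratios of Mir181a-1 and Mir181b-1 went from 1.29 to 1.21, and the gap between Mir181c and Mir181d from -0.53 to -0.26. The 2 libraries also cite different documents on adapter trimming, and trimming and replicate cannot be told apart.

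Some markers of other cell types moved between the libraries as well. The called genes of each list are given beside 79 of 438 called among all detected genes (18.0%). The choroid plexus and ependyma list held 0.117% of counts in replicate 1 and 0.247% in replicate 2. Of its 5 detected genes 4 were called higher in replicate 2, with Mir204 at 778 and 1755 CPM and Mir34c at 325 and 620.0 CPM. The epithelium list held 1.28% and 0.206%. All 7 of its genes were detected and 6 were called higher in replicate 1, with Mir200c at 6184 and 470.0 CPM and Mir200b at 2560.3 and 901 CPM. The remaining gene, Mir203, went the other way, at 46.7 and 68.0 CPM (log2 ratio 0.66), and was not called. Of the 9 detected neuron markers 2 were called, both higher in replicate 2, which is close to the share over all detected genes. No gene was called of the oligodendrocyte list (0.711% and 0.785%, led by Mir219a-2 and Mir338), of the leukocyte and microglia list (0.135% and 0.194%, led by Mir150 and Mir146), of the vascular list (0.429% and 0.543%, led by Mir126a and Mir143) or of the muscle list, of which Mir206 was at 19.9 and 29.5 CPM. The part of these cell types in the difference of Mir181a-1 was not tested.

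**Figure D4:**
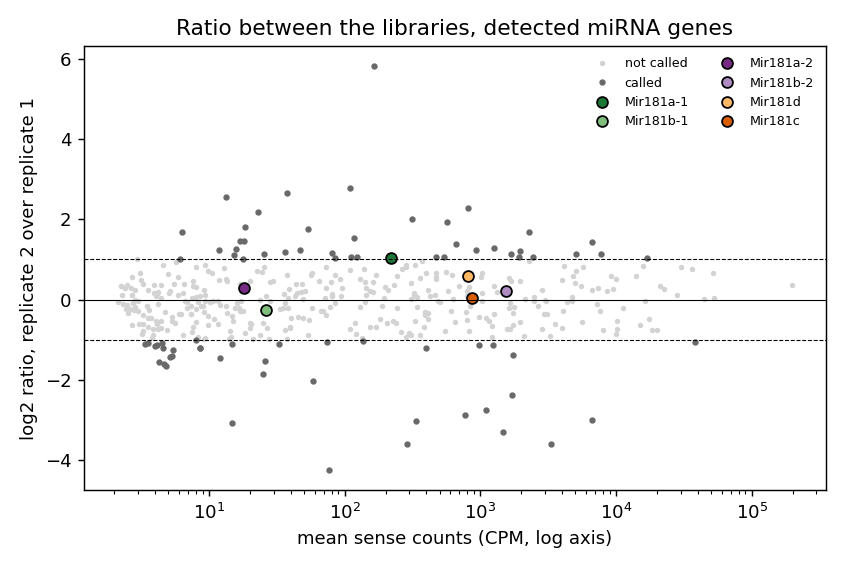
Log2 ratio of replicate 2 to replicate 1 (TMM-scaled, y axis) against the mean sense count (CPM, log axis) for the 438 detected genes in light grey (not called) or dark grey (called), with the 6 members in colour and dashed lines at a ratio of 2 in either direction. Mir181a-1 lies on the upper dashed line at 1.02, Mir181d is at 0.58, and the other members lie between -0.26 and 0.29.

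The miR-30 and miR-29 families also lie at paired loci, and some of their genes share a mature arm. The miR-30 family (6 genes) held 2.21% ± 0.619 of counts and the miR-29 family (4 genes) 1.48% ± 0.330 (SD, n = 2), against 0.348% for miR-181. Each of these shares leaves out reads placed at several loci. None of their genes was called between the libraries, beside 18.0% of all detected genes. Several still had ratios short of the limit of 2, with log2 ratios of 0.83 for Mir30a, 0.84 for Mir30d and -0.73 for Mir30e, and 0.38 to 0.61 over the 4 miR-29 genes. The highest member had 88.7 and 83.5 times the count of the lowest in the miR-181 family, 170.1 and 200.01 times in miR-30 (Mir30d over Mir30b), and 294 and 338 times in miR-29 (Mir29a over Mir29b-1). A wide span of counts within a family was thus found in all 3. Mir181a-2 and Mir29b-1, the lowest of their families, hold an arm that is whole in another counted gene, and so does Mir181b-2. Reads of such an arm alone are in no count, so these spans are of counted reads only.

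Over the 3 families, 8 genes hold a mature arm that is whole in another counted gene, and 4 of them are Mir181a-1, Mir181a-2, Mir181b-1 and Mir181b-2. The 8 ranged from 18.0 to 1546 CPM with a median of 143, Mir181b-2 being the highest. The others were Mir29b-1 (44.1 CPM), Mir29b-2 (92.6), Mir30c-1 (193) and Mir30c-2 (329). The 6 genes whose arms are each whole in 1 counted gene, Mir181c and Mir181d among them, ranged from 618 to 14014 CPM with a median of 1223. They include Mir29c (618 CPM), Mir30e (1575), Mir30a (4157) and Mir29a (14014). Mir30b (84.3 CPM) and Mir30d (15810) are not in the sequence table, so they are in neither group. Among the genes placed in a group, Mir181b-2 overlaps the range of those with no shared arm, and the other 7 lie below it. Mir30b also lies below that range, so the split could change if its arms were known. The genes of a family share loci and sequence, so this is a description with no test.

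**Figure D5:**
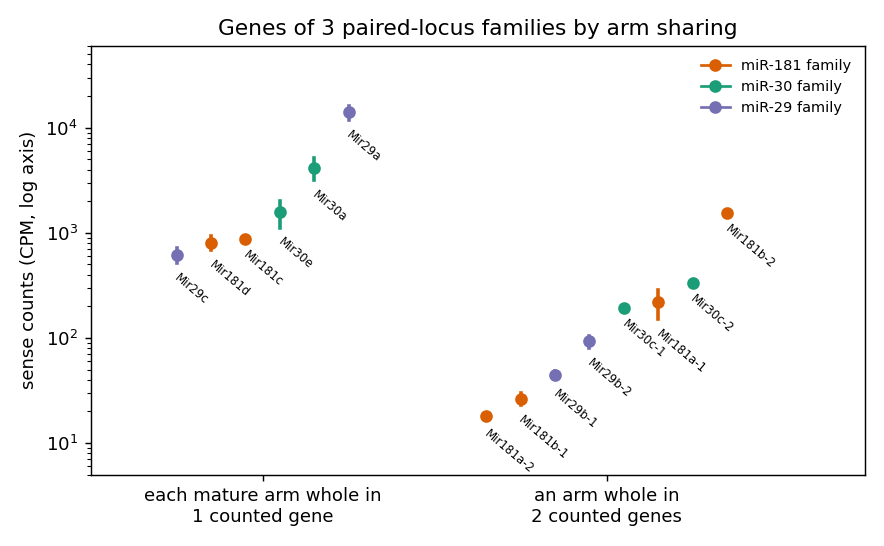
Sense counts in CPM (log axis) of the genes of the miR-181, miR-30 and miR-29 families, split by whether a mature arm is whole in 1 or in 2 counted genes. Mir30b and Mir30d, which are not in the sequence table, are left out. Points are means over the 2 libraries and bars run between them. Mir181b-2 at 1546 CPM is the highest gene with a shared arm, and Mir181a-2 at 18.0 CPM the lowest.

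The detected gene nearest to each member was found by the Euclidean distance of log2(CPM + 1) over the 2 libraries. Mir181d was nearest to Mir137 (638 and 910.0 CPM, distance 0.0957) and Mir181a-1 to Mir148b (162 and 296 CPM, distance 0.114). Mir181b-2 was nearest to Mir676 (distance 0.241) and Mir181c to Mir323 (0.170). Mir181b-1 was nearest to Mir1982 (0.0687) and Mir181a-2 to Mir3061 (0.0275). With 2 libraries these distances describe levels alone.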

How the data were processed

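The authors deposited 1 table of raw counts per library, for either strand, the sense strand and the opposite strand of each miRNA gene. The genome was mm10 and the annotation GENCODE M21, per the labels and a deposited readme. Aligner and counter: not given in the sources used here. Per the summary lines of the deposited tables, reads placed at several loci are in no gene's count. The 4 summary lines entered no library size or test. Unmapped reads were 17.0% and 11.1% of reads, and uniquely placed reads outside genes 3.67% and 2.81%.

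Sense counts were scaled to CPM. Locations, GC content and the hairpins searched for shared runs and windows came from M21. Mature arms and the hairpins shown came from RefSeq (GRCm38.p6), which held hairpins for 5 of the 6 members. All 2202 genes matched M21. Library ratios used 0.5 added counts and TMM (edgeR 4.0.16, R 4.3.3), and tests SciPy 1.17.1. The alternatives were library totals, DESeq2 1.42.0 size factors, other filters and ratios, unstranded counts, removal of the GC trend, equal depth, gene length and leaving out a library.

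The members and lists were chosen with earlier results of these data known. Genes were named by a rule: the members, the nearest detected gene to each, overlapping genes, all miR-30 and miR-29 genes, and the 2 highest of each marker list. The neuron markers that were not detected and Mir203 of the epithelium list are named besides.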

Additional observations from a re-analysis of the deposited data

How the results depend on the processing

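The family's share was 0.435% with the most abundant gene left out of the total. Per 100 nt, the locus of Mir181a-2 and Mir181b-2 held 42.6% and that of Mir181c and Mir181d 50.6%. Of 5 neighbour comparisons within a library, 4 passed without replicate 1 and 5 without replicate 2. The number of called genes was 52 with a minimum of 10 CPM and 171 with a ratio of 1.5. Mir181a-1 was not called, leaving 0 members called, with library totals (log2 ratio 0.90), with the 10 CPM minimum (0.99) and with the GC trend removed (0.65). Mir181b-2 turned to -0.085 with the GC trend removed, and Mir181c to -0.074 with library totals. At an adjusted p under 0.05 alone, 3 members passed in the reported fit, 5 with library totals and with the GC trend removed, and 4 with DESeq2 size factors and with no filter on low counts. In the either-strand counts Mir181b-2 was at 1632 CPM and Mir181c at 919.5 CPM. A library ratio needs both libraries, so leaving 1 out gives none. No paired analysis was possible because there is 1 group. Counts of 75 to 159 limit the precision for Mir181b-1 and Mir181a-2.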
